A study of Mus musculus with 2 samples.

Results

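The genes described here are 35 members of glycolysis and of glucose, lactate and glycogen handling, read in single cells of the pressure-loaded mouse heart. They were chosen by symbol: the enzymes of each step from hexokinase to lactate dehydrogenase with their tissue isoenzymes, the glucose carriers Slc2a1 and Slc2a4, the 4 Pfkfb enzymes, the pyruvate dehydrogenase kinases Pdk1, Pdk2 and Pdk4, the pyruvate dehydrogenase E1 subunits, the mitochondrial pyruvate carrier, the lactate carriers Slc16a1 and Slc16a3, and Pygm and Gys1 of glycogen turnover. All 35 symbols were found among the 32589 gene identifiers of the count files. Aldoa stood under 2 identifiers, whose counts were summed, so 36 identifiers were used. The choice used no threshold on the counts.

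Glycolysis splits glucose into pyruvate in the cytosol. Pyruvate then either enters mitochondria through the pyruvate carrier, to be oxidised by pyruvate dehydrogenase, or is reduced to lactate by lactate dehydrogenase and exported with a proton by monocarboxylate carriers. The adult heart is known to burn mainly fatty acids and to take up lactate, and to lean more on glucose when its load is chronically raised. Several steps have a muscle or heart isoenzyme (Pfkm, Pgam2, Eno3, Ldhb, Slc2a4, Pygm) and a form used by most other cells (Pfkl or Pfkp, Pgam1, Eno1, Ldha, Slc2a1). The hypoxia-inducible factors are known to act on many of these genes through sites that hold the letters ACGTG.

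The counts come from 2 libraries. One was made from mice labelled wild-type and the other from mice labelled p53 knockout, a loss of the tumour suppressor gene Trp53 whose allele and extent across tissues the labels do not give. Both groups had undergone transverse aortic constriction (TAC), a narrowing of the aortic arch that loads the left ventricle with pressure, and the hypertrophied left ventricles were taken 6 weeks later, those of 3 hearts mixed into each library. There is no unoperated group, no replicate library and no label that ties a cell to a heart, and neither strain nor age is given. The study asked how p53 bears on cardiac hypertrophy. The libraries are called WT-labelled and p53KO-labelled below.

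The promoters of 5 members are shown: the lactate dehydrogenase pair, whose balance differed between the libraries in cardiomyocytes, and a glucose carrier, a lactate carrier and phosphoglycerate kinase, which were higher in the p53KO-labelled library in several cell classes. Each sequence holds 250 bases before and 50 bases after the start site, 5' to 3' on the gene's strand, from RefSeq on GRCm38.p6, and capitals mark ACGTG or its reverse complement CACGT.
Ldha (chr7:46845554-46845853, plus strand): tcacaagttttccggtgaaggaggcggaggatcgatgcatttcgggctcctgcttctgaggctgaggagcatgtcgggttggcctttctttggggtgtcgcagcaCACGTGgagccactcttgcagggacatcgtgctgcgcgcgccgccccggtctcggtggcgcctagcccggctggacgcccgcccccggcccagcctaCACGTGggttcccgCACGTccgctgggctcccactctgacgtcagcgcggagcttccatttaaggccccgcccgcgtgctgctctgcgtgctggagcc
Ldhb (chr6:142507908-142508207, minus strand): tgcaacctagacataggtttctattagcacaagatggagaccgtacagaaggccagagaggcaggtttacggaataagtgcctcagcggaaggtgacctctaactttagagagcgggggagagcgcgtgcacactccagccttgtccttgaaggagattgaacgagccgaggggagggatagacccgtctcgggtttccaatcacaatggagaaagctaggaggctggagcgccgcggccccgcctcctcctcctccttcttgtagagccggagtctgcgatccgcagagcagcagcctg
Slc2a1 (chr4:119108495-119108794, plus strand): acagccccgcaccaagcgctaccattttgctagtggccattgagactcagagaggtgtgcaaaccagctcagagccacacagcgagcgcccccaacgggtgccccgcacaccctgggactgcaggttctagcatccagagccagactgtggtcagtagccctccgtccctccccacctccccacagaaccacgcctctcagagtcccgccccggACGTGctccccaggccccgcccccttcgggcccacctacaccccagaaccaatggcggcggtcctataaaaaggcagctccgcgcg
Slc16a3 (chr11:120948817-120949116, plus strand): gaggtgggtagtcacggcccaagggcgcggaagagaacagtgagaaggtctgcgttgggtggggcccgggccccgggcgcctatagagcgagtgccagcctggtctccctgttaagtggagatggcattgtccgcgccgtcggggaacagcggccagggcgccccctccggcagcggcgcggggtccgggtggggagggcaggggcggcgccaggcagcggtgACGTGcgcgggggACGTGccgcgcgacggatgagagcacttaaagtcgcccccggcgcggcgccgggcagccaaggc
Pgk1 (chrX:106186850-106187149, plus strand): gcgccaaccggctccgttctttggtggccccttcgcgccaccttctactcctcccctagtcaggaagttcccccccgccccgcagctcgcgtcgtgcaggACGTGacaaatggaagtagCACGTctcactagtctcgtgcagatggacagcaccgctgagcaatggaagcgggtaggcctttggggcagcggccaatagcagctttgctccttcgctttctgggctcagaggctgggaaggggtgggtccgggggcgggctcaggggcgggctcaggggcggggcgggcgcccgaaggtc
The Ldha window held 3 separate marked runs, the Slc16a3 and Pgk1 windows 2 each and the Slc2a1 window 1, whereas the Ldhb window held 0. Ldha has a further start site, not shown, whose window held 0, and the windows of Pfkp, Pfkl and Pfkfb1, which had wider or similar ratios in cardiomyocytes, held 0 as well. RefSeq gave promoters for 34 of the 35 members, with 54 start sites. ACGTG, searched on both strands, was in 22 of these 54 windows (40.7%), which belonged to 18 members, and in 6447 of all 32851 promoter windows of the same length (19.6%). CACGTG, which contains ACGTG on both strands, was in 6 of the 54 (11.1%) and in 7.15% of all. These matches describe letters in a window and say nothing of whether a factor sat there in these cells.

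The WT-labelled library held 16060 barcodes and 18897913 unique molecular identifiers (UMIs, each standing for 1 captured RNA molecule), and the other 10118 barcodes and 20918824 UMIs. After filtering, 14763 and 9298 cells were clustered, and each cluster was given a class name, written with "-like", from marker lists. The labels give the cell type as cardiomyocytes, whereas cardiomyocyte-like cells were 4568 and 865 of the kept cells; the remainder were mainly fibroblast-like, endothelial, endocardial, macrophage-like and pericyte-like. Trp53 was not clearly lower in the p53KO-labelled library. In cardiomyocyte-like cells poor in mitochondrial RNA it stood at 29.6 and 23.01 CPM, a difference within counting error. In those rich in mitochondrial RNA it was higher in the p53KO-labelled library, at 12.8 and 38.4 CPM, both from few UMIs. A 3' count outside a deleted stretch would not show the deletion, so the libraries are called by their labels here. They also differed in sex-linked RNA, with Xist at 2.38 and 929 CPM and 4 Y-linked genes together at 539 and 7.34 CPM over all kept cells. Label, sex composition, dissection and library preparation therefore cannot be told apart.

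Levels are counts per 1000000 nuclear-encoded UMIs (CPM), summed over a class, and pairs of values are given for the WT-labelled library first and the p53KO-labelled library second. Ratios are of the second library over the first, on the log2 scale with 0.5 UMI added to each sum, and a gene counts as measured with at least 20 UMIs over both. Intervals are 95% and exact, and cover counting error only, not the spread between animals, which 1 library per group cannot show; no p-value is given. Counting at the 3' end does not allow the levels of different genes to be set against each other, so isoenzymes are compared through their share of a pair across libraries and cells.

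Cardiomyocyte-like cells fell into those with under 10% of their UMIs from mitochondrial genes (mt-poor, 3863 and 622 cells) and those with 10% or more (mt-rich, 705 and 243 cells). The 10 cardiomyocyte markers, all detected in both, made up 5.802% and 5.97% of nuclear-encoded UMIs in the mt-poor cells and 6.75% and 6.003% in the mt-rich. The 35 members together made up 0.522% and 0.547% in the mt-poor cells and 1.35% and 1.51% in the mt-rich cells, against 0.184% to 0.259% in the 5 other large classes.

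In mt-poor cardiomyocyte-like cells the p53KO-labelled library held more RNA of hexokinase 2, of the non-muscle phosphofructokinases, of Pgk1, Pgam1 and Ldha, and of the carriers Slc2a1 and Slc16a1. It held less RNA of Ldhb, Eno3, Pfkfb1 and Pfkfb4. Gapdh, Slc2a4, Pdk4 and the pyruvate dehydrogenase subunits differed by less than counting error. Of 33 measured members, 19 were higher and 14 lower, where 29.99% of all measured genes were higher; 7 were at least 2-fold higher, where 3.74% of all measured genes were, and 3 at least 2-fold lower, where 18.0% of all were. The median log2 ratio of the members was 0.12, beside -0.31 over all 13111 measured genes. Median depth was 1000 and 1510 UMIs per cell, cells with a UMI of an atrial gene made up 0.518% and 6.59%, and blood RNA, the sum of 4 haemoglobin genes, took 0.0342% and 0.133% of nuclear-encoded UMIs. Among cells of 500 to 1500 UMIs the median log2 ratio of the members in mt-poor cells was 0.24, with 9 at least 2-fold higher and 2 lower. Without cells holding an atrial gene UMI it was 0.13, with 5 at least 2-fold higher and 3 lower. The shares of all measured genes past 2-fold in these narrower cell sets are not given, so these counts cannot be set against them. The part of blood RNA in the ratios was not tested.

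**Figure D1:**
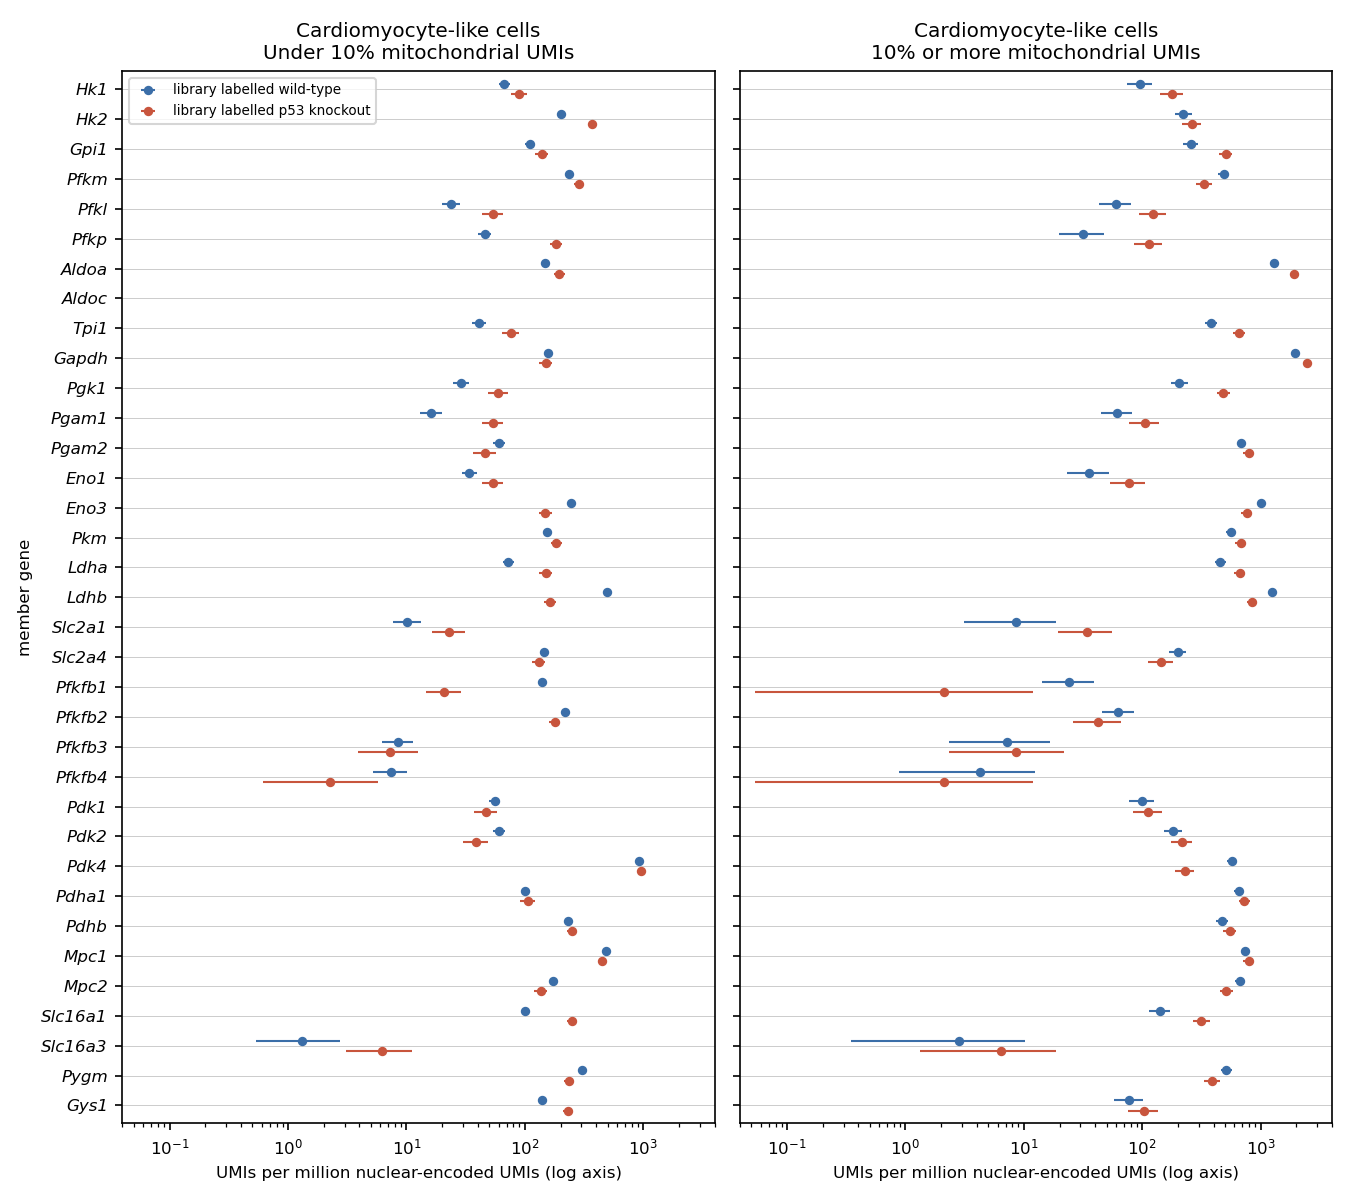
Level of each member in cardiomyocyte-like cells of the 2 libraries, in CPM of nuclear-encoded UMIs on a log axis, with mt-poor and mt-rich cells in separate panels and bars for exact 95% intervals of counting error. In mt-poor cells Ldhb stands at 491 CPM in the WT-labelled library and 164 CPM in the other, and Pfkp at 45.9 and 183 CPM.

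Glucose entry was first examined in the mt-poor cells. Slc2a4, the insulin-responsive carrier of muscle and fat (ENSMUSG00000018566; chromosome 11, 69942539 to 69948188, minus strand, mm10), had 768 and 233 UMIs, or 145 CPM (interval 135 to 156) and 131 CPM (interval 115 to 149). The intervals overlapped. Slc2a1, the carrier that most cells use for basal uptake (ENSMUSG00000028645; chromosome 4, 119108711 to 119137983, plus strand), was scarce in both libraries, with 54 and 41 UMIs, or 10.2 CPM (interval 7.66 to 13.3) and 23.01 CPM (interval 16.5 to 31.2). Its log2 ratio was 1.18 (interval 0.55 to 1.79), but it was not seen in every cluster, as set out further on. Hk2, the insulin-regulated hexokinase of muscle that traps glucose as glucose 6-phosphate, had 1072 and 656 UMIs and stood at 202 CPM (interval 190.4 to 215) and 368 CPM (interval 341 to 398), a log2 ratio of 0.86 (interval 0.72 to 1.01). Hk1, the hexokinase of most tissues, stood at 67.02 and 89.8 CPM (log2 ratio 0.42), so both hexokinases were higher in the p53KO-labelled library and the step as a whole stood at 269 and 458 CPM. Gpi1, which turns glucose 6-phosphate into fructose 6-phosphate, stood at 109.9 and 139 CPM.

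Phosphofructokinase commits the sugar to glycolysis, and its 3 genes differed in unlike degree. Pfkm, the muscle form, had 1256 and 508 UMIs, or 237 CPM (interval 224 to 251) and 285 CPM (interval 261 to 311). Pfkp, the platelet form (ENSMUSG00000021196; chromosome 13, 6579768 to 6648777, minus strand), had 243 and 326 UMIs, or 45.9 CPM (interval 40.3 to 52.02) and 183 CPM (interval 164 to 204), a log2 ratio of 1.995 (interval 1.75 to 2.24). The liver form Pfkl stood at 23.8 CPM (interval 19.8 to 28.3) and 53.9 CPM (interval 43.6 to 65.8), a log2 ratio of 1.18. Within cluster 1, the largest cluster of these cells, the log2 ratio was 0.22 for Pfkp and -0.24 for Pfkm, and among cells of 500 to 1500 UMIs it was -0.20 for Pfkm, so the direction of Pfkm depended on the cells taken. The 3 genes together stood at 307 and 522 CPM. The last 2000 bases of Pfkp are overlapped on the other strand by Pitrm1, and the files do not say whether counting used strand; Pitrm1 itself stood at 39.6 and 20.8 CPM, lower in the library where Pfkp was higher.

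The Pfkfb enzymes make and remove fructose 2,6-bisphosphate, the main activator of phosphofructokinase. Pfkfb1, the form of liver and skeletal muscle (ENSMUSG00000025271; chromosome X, 150588229 to 150643878, plus strand), showed the member set's widest difference among measured genes in these cells: 738 and 37 UMIs, or 139 CPM (interval 129 to 149.8) and 20.8 CPM (interval 14.6 to 28.6), a log2 ratio of -2.73 (interval -3.26 to -2.27). Pfkfb2, the heart form, had 1162 and 317 UMIs and stood at 219 CPM (interval 207 to 232) and 178 CPM (interval 159 to 199). Within the Pfkfb group the Pfkfb1 share was thus 37.2% in the WT-labelled library and 9.97% in the other, and the Pfkfb2 share 58.6% and 85.4%. Pfkfb4 was sparse, with 39 and 4 UMIs (log2 ratio -1.56, interval -3.66 to -0.24, with 0 UMIs in cluster 1 of the p53KO-labelled library). Pfkfb3, a form induced by growth signals and low oxygen, had 45 and 13 UMIs and its intervals overlapped. Pfkfb1 lies on the X chromosome, and the part of the difference in sex-linked RNA in its values was not tested.

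Among the steps after aldolase, Pgk1, Pgam1 and Eno1 were higher in the p53KO-labelled library, whereas Gapdh did not differ beyond counting error. Pgam1, the mutase of most tissues, had 86 and 95 UMIs, or 16.2 CPM (interval 12.99 to 20.1) and 53.3 CPM (interval 43.1 to 65.2), a log2 ratio of 1.71 (interval 1.28 to 2.15). Pgam2, the muscle mutase, stood at 60.6 and 46.03 CPM (log2 ratio -0.39, interval -0.76 to -0.04), but its ratio turned to 0.45 among cells of 500 to 1500 UMIs and to 0.069 with every cell weighted equally. Pgk1, the first step that yields ATP (ENSMUSG00000062070; chromosome X, 106187100 to 106203699, plus strand), had 153 and 106 UMIs, or 28.9 CPM (interval 24.5 to 33.8) and 59.5 CPM (interval 48.7 to 71.96); it too is X-linked. The muscle enolase Eno3 had 1293 and 266 UMIs and stood at 244 CPM (interval 231 to 258) and 149 CPM (interval 132 to 168), a log2 ratio of -0.71, whereas Eno1, the enolase of most cells, stood at 33.98 and 53.9 CPM (log2 ratio 0.67). Of the remaining steps, Aldoa stood at 148 and 195 CPM, Tpi1 at 41.2 and 75.8 CPM, Gapdh at 157 and 149.9 CPM and Pkm at 153 and 184 CPM. Aldoc, the aldolase of brain, had 0 UMIs in both libraries, with intervals that reach 0.696 and 2.07 CPM.

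Lactate dehydrogenase showed the clearest contrast between members of 1 pair. Ldhb, whose heart-type subunit is known to favour the oxidation of lactate to pyruvate (ENSMUSG00000030246; chromosome 6, 142490249 to 142507957, minus strand), had 2602 and 293 UMIs, or 491 CPM (interval 473 to 510.5) and 164 CPM (interval 146 to 184), a log2 ratio of -1.58 (interval -1.76 to -1.404), which was -0.75 among cells of 500 to 1500 UMIs. Ldha, the muscle-type subunit known for the reverse reaction (ENSMUSG00000063229; chromosome 7, 46841475 to 46855627, plus strand), had 385 and 267 UMIs, or 72.7 CPM (interval 65.6 to 80.3) and 149.9 CPM (interval 132 to 169), a log2 ratio of 1.04 (interval 0.81 to 1.27). The pair together stood at 564 and 314 CPM. Slc16a1, the monocarboxylate carrier MCT1 that moves lactate across the plasma membrane (ENSMUSG00000032902; chromosome 3, 104638668 to 104658462, plus strand), had 532 and 445 UMIs, or 100.4 CPM (interval 92.1 to 109) and 249.8 CPM (interval 227 to 274), a log2 ratio of 1.31 (interval 1.13 to 1.499). Ldha and Slc16a1 were higher, and Ldhb lower, in the p53KO-labelled library, and none of these 3 pairs of intervals overlapped. Slc16a3, the exporter MCT4 of glycolytic tissue, had only 7 and 11 UMIs and was not measured.

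The fate of pyruvate and glycogen turnover differed less. Pdk4, the kinase induced by fasting and fatty acids that switches pyruvate dehydrogenase off, had 4833 and 1713 UMIs, or 912 CPM (interval 887 to 939) and 962 CPM (interval 917 to 1008). Pdk2 stood at 60.6 and 38.7 CPM (log2 ratio -0.64, interval -1.04 to -0.27) and Pdk1 at 55.5 and 46.6 CPM. The E1 subunits of pyruvate dehydrogenase, Pdha1 and Pdhb, stood at 101 and 106 CPM and at 229.6 and 249 CPM, and their intervals overlapped between the libraries. Of the pyruvate carrier, Mpc1 had 2564 and 798 UMIs and stood at 484 CPM (interval 466 to 503) and 448 CPM (interval 417 to 480.1), and Mpc2 stood at 174 and 136 CPM. Glycogen phosphorylase of muscle, Pygm, had 1593 and 420 UMIs and stood at 301 CPM (interval 286 to 316) and 236 CPM (interval 214 to 259), while glycogen synthase, Gys1, stood at 139 and 231 CPM (log2 ratio 0.73, interval 0.55 to 0.91). The synthase was thus higher and the muscle phosphorylase lower in the p53KO-labelled library. In mt-rich cells the ratio interval of Gys1 held 0 (log2 ratio 0.41, interval -0.18 to 0.998).

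Expressed as shares of a pair, the muscle or heart form took the smaller part in the p53KO-labelled library in 5 of the pairs and triplets. In mt-poor cells Ldhb was 87.1% of lactate dehydrogenase UMIs in the WT-labelled library (interval 85.9 to 88.3%) and 52.3% in the other (interval 48.1 to 56.5%), a difference of -34.8 points (interval -39.1 to -30.5). Pgam2 was 78.9% and 46.3% of mutase UMIs, and Eno3 87.8% and 73.5% of enolase UMIs. Pfkm was 77.3% and 54.6% of phosphofructokinase UMIs, where Pfkp took 14.95% and 35.1%. The 5th, Slc2a4, was 93.4% and 85.04% of the 2 glucose carriers. Hexokinase ran the other way, with Hk2 at 75.1% and 80.4%. So did the Pfkfb group, where the heart form Pfkfb2 took a larger share in the p53KO-labelled library, as given above. The level of Pfkfb2 itself was lower there, at 219 and 178 CPM, and that of the group at 375 and 208 CPM. Pdk4 had 4833 of 5448 and 1713 of 1865 UMIs of its kinase group, a larger share in the p53KO-labelled library too. The direction of the Pdk4 share turned under an alternative, as given further on. Over the mt-poor cells as a whole, the muscle or heart form of lactate dehydrogenase and enolase was lower and the other form higher. For enolase this was not seen in every cluster, as set out further on. For mutase and phosphofructokinase the other forms were higher, while the direction of Pgam2 and Pfkm themselves turned with the cells taken or their weighting, as given above.

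**Figure D2:**
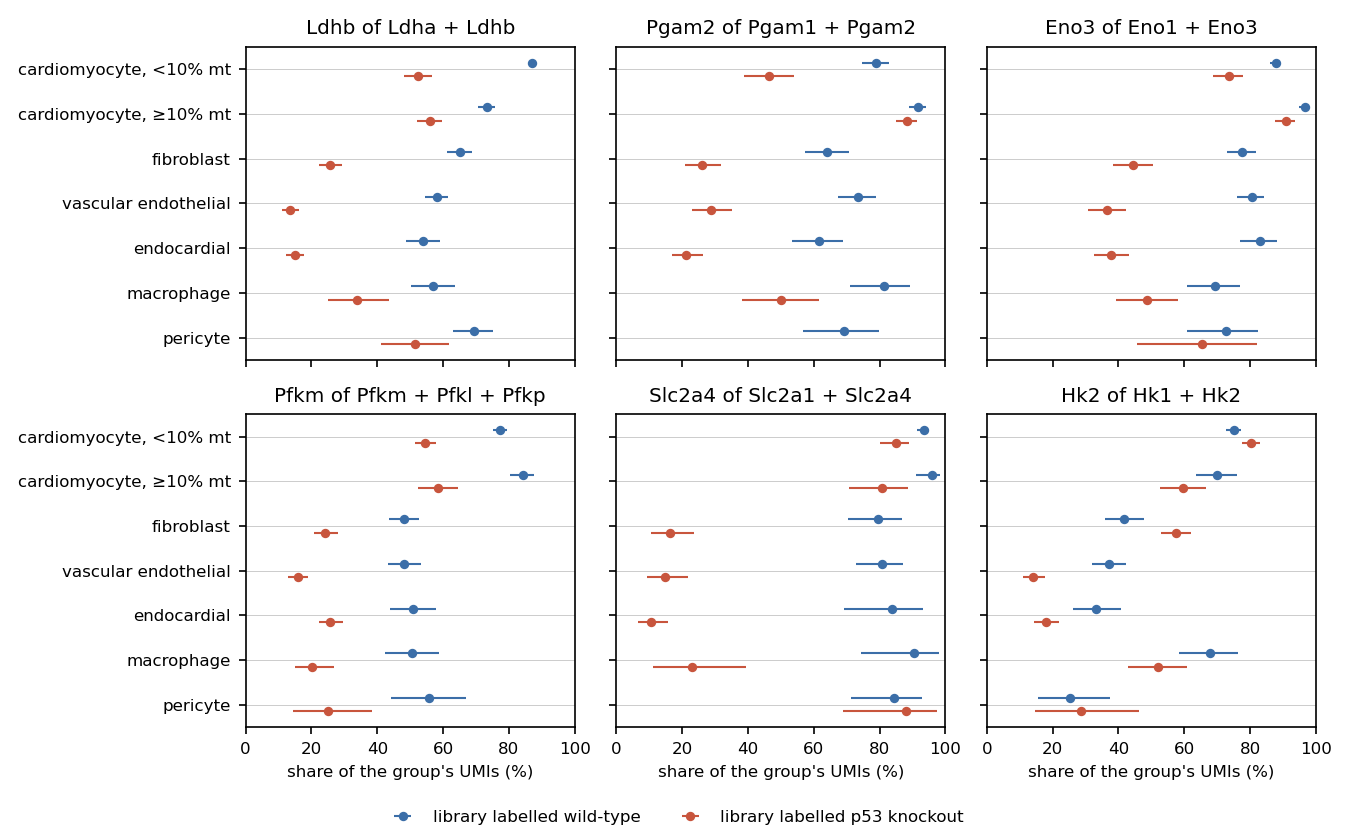
Share of each isoenzyme group's UMIs taken by the muscle or heart form, in percent, by cell class and library, with bars for exact 95% binomial intervals that cover counting error. In mt-poor cardiomyocyte-like cells the Ldhb share is 87.1% in the WT-labelled library and 52.3% in the other, and in vascular endothelial-like cells 58.03% and 13.5%.

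The mt-rich cardiomyocyte-like cells gave a second reading of the same libraries. Here too Pfkp, Pfkl, Pgk1, Slc2a1 and Slc16a1 were at least 2-fold higher in the p53KO-labelled library, with Eno1 as a further one, and Ldhb was lower. Pdk4 was the member past 2-fold in the lower direction, a difference that fell short of 2-fold among cells of 500 to 1500 UMIs (log2 ratio -0.65). Of 30 measured members, 22 were higher and 8 lower, where 41.97% of all measured genes were higher; 6 were at least 2-fold higher, where 6.04% of all measured genes were, and 1 at least 2-fold lower, where 13.1% were. Their median log2 ratio was 0.26, beside -0.14 over all 8096 measured genes. Among cells of 500 to 1500 UMIs it was 0.073, and 2 members were at least 2-fold lower. The share of all measured genes past 2-fold among those cells is not given. Blood RNA took 0.218% and 1.11% of nuclear-encoded UMIs in these cells, and cells with a UMI of an atrial gene made up 0.851% and 13.2%.

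Slc16a1 had 99 and 148 UMIs in the mt-rich cells, or 141 CPM (interval 115 to 172) and 316 CPM (interval 267 to 371), a log2 ratio of 1.16 (interval 0.78 to 1.54). Pgk1 had 144 and 227 UMIs, or 206 CPM (interval 173 to 242) and 484 CPM (interval 423 to 552), and Pfkp had 22 and 53 UMIs, or 31.4 CPM (interval 19.7 to 47.5) and 113 CPM (interval 84.7 to 148). Pfkl stood at 59.96 and 124 CPM and Eno1 at 35.7 and 76.8 CPM, from 25 and 36 UMIs. All 5 were higher in the p53KO-labelled library, and their intervals did not overlap. Slc2a1 rested on 6 and 16 UMIs, or 8.57 CPM (interval 3.14 to 18.6) and 34.1 CPM (interval 19.5 to 55.4), a log2 ratio of 1.92 that was 0.64 with the split at 20% mitochondrial UMIs. Pdk4 had 404 and 107 UMIs, or 577 CPM (interval 522 to 636) and 228 CPM (interval 187 to 276), a log2 ratio of -1.33 (interval -1.66 to -1.03), whereas in mt-poor cells it had differed by less than counting error.

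The abundant steps were also read in the mt-rich cells. Gapdh had 1369 and 1160 UMIs and stood at 1954 CPM (interval 1852 to 2061) and 2475 CPM (interval 2335 to 2622). Aldoa stood at 1298 CPM (interval 1215 to 1385) and 1901 CPM (interval 1778 to 2030.3) and Tpi1 at 383 and 657 CPM. Gpi1 stood at 256 and 506 CPM and Hk1 at 95.6 and 177 CPM, both just under 2-fold apart. Every one of these housekeeping steps was higher in the p53KO-labelled library. Ldha stood at 457 and 666 CPM (log2 ratio 0.54) and Ldhb at 1251 CPM (interval 1169 to 1336) and 845 CPM (interval 764 to 932) (log2 ratio -0.56), so the pair again diverged, less widely than in mt-poor cells. Eno3 stood at 1006 and 759.6 CPM, Pygm at 514 and 388 CPM and Mpc2 at 668 and 514 CPM, all lower in the p53KO-labelled library, although Pygm was at a log2 ratio of 0.073 among cells of 500 to 1500 UMIs. Pdha1, the X-linked E1 subunit, stood at 651 and 725 CPM and Mpc1 at 739 and 792 CPM, and neither differed beyond counting error.

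Shares of the pairs were closer in the mt-rich cells than in the mt-poor cells for lactate dehydrogenase, mutase and enolase. Ldhb took 73.2% and 55.9% (difference -17.3 points, interval -21.7 to -12.9), Eno3 96.6% and 90.8%. Pgam2 took 91.8% and 88.4%, a difference whose interval held 0. Pfkm took 84.2% and 58.6%, and here Pfkm itself was lower, at 485 and 335 CPM (log2 ratio -0.53, interval -0.82 to -0.26, and -0.13 among cells of 500 to 1500 UMIs). Among the kinases Pdk4 took 67.2% and 41.2%, and Pdk2 21.1% and 38.8%. Hk2 took 69.96% and 59.7% of hexokinase UMIs, lower in the p53KO-labelled library where in mt-poor cells it had been higher.

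The cardiomyocyte-like cells of the libraries lay mostly in different clusters, which touches every mt-poor value above. The levels by cluster given here are sums over all cells of a cluster, mt-poor and mt-rich together. Log2 ratios given for cluster 1 in other paragraphs are of its mt-poor cells only. Of the mt-poor cells, clusters 1 and 7 held 2487 and 1289 in the WT-labelled library and 118 and 36 in the other. Cluster 14 held 22 and 403, and the mt-rich cells were mainly cluster 9, with 644 and 239. Cluster 9 also gave 65 and 65 of the 3863 and 622 mt-poor cells. Its Tpi1 stood at 379 and 638 CPM and its Pgk1 at 197 and 471 CPM. In cluster 1 Tpi1 stood at 47.9 and 44.8 CPM and Pgk1 at 38.1 and 44.8 CPM. The second values there rest on 4 UMIs each. In cluster 7 Tpi1 stood at 39.3 and 13.3 CPM and Pgk1 at 24.8 and 13.3 CPM, the second values from 1 UMI each. The higher levels of both genes were thus not seen in cluster 7. The part of cluster 9 in the mt-poor ratios was not tested. A cluster that is nearly all 1 library may be that library rather than a kind of cell. Ldhb in clusters 1, 7 and 9 stood at 457, 529 and 1228 CPM in the WT-labelled library, and at 213, 386 and 834 CPM in the other, with 126 CPM in its cluster 14. It was lower in each of these 3 clusters, but in cluster 7 the second value rests on 29 UMIs and the intervals overlapped. Pfkfb1 stood at 124 and 22.4 CPM in cluster 1 and at 151 and 26.6 CPM in cluster 7, again lower within each. The second values rest on 2 UMIs each, with intervals that reach 80.9 and 96.2 CPM. Pfkp went otherwise: in cluster 1 it stood at 43.5 and 44.8 CPM, the second from 4 UMIs, in cluster 7 at 45.6 and 213 CPM, the second from 16 UMIs, and 296 of its UMIs in the p53KO-labelled library came from cluster 14. Slc2a1 had 0 UMIs in cluster 1 of that library, which allows up to 41.3 CPM, and 34 in cluster 14. In cluster 1 of the other library it stood at 12.4 CPM. Eno3 stood at 241 and 240 CPM in cluster 7, the second from 18 UMIs. In cluster 1 it stood at 252 and 179 CPM, and the intervals overlapped. Eno1 stood at 34.1 and 22.4 CPM in cluster 1 and at 33.7 and 53.3 CPM in cluster 7. The second values rest on 2 and 4 UMIs. Gys1 stood at 141 and 213 CPM in cluster 1 and at 138 and 147 CPM in cluster 7. Ldha stood at 84.2 and 146 CPM in cluster 1 and at 66.7 and 93.3 CPM in cluster 7. The second values rest on 13 and 7 UMIs, and the intervals overlapped in both clusters. Hk2 stood at 201 and 482 CPM in cluster 1 and at 202 and 213 CPM in cluster 7, where its intervals overlapped.

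Cells rich in mitochondrial RNA held more glycolytic RNA per nuclear-encoded UMI than mt-poor cells of the same library, and this comparison lies within each library. Ratios in this paragraph are of mt-rich over mt-poor cells, in the WT-labelled library and then in the other. Of 33 and 31 measured members, 25 and 25 were higher in mt-rich cells, where 46.9% and 50.5% of all measured genes were. Members at least 2-fold higher numbered 17 and 16, where 18.1% and 26.1% of all measured genes were. Those at least 2-fold lower numbered 2 and 4, where 18.1% and 24.0% were. The members' median log2 ratio was 1.03 and 1.13, beside -0.08 and 0.02 over all measured genes. Gapdh had log2 ratios of 3.64 and 4.04, Pgam2 of 3.498 and 4.101, Aldoa of 3.14 and 3.29, Tpi1 of 3.22 and 3.11 and Pgk1 of 2.83 and 3.02, so the steps from aldolase to the mutase were several-fold higher in both libraries. Pdha1, an E1 subunit of pyruvate dehydrogenase, had 2.69 and 2.77, and Ldhb 1.35 and 2.36.

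Several regulators ran against that direction. Pfkfb1 had mt-rich over mt-poor log2 ratios of -2.48 and -2.72, Pfkfb2 of -1.79 and -2.03, Pdk4 of -0.66 and -2.07 and Gys1 of -0.84 and -1.16, each lower in mt-rich cells of both libraries, though Pfkfb1 had 1 UMI in mt-rich cells of the p53KO-labelled library. Pfkp had -0.52 and -0.68, against 1.03 and 0.24 for Pfkm. Hk2 had 0.14 and -0.48, of unlike sign in the libraries. Malat1, an RNA that stays in the nucleus, took 7.17% and 8.701% of nuclear-encoded UMIs in mt-poor cells and 1.97% and 1.05% in mt-rich cells. It moved with the split in both libraries, and its part in these ratios was not tested; the labels leave unsaid whether whole cells or nuclei entered the droplets.

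**Figure D3:**
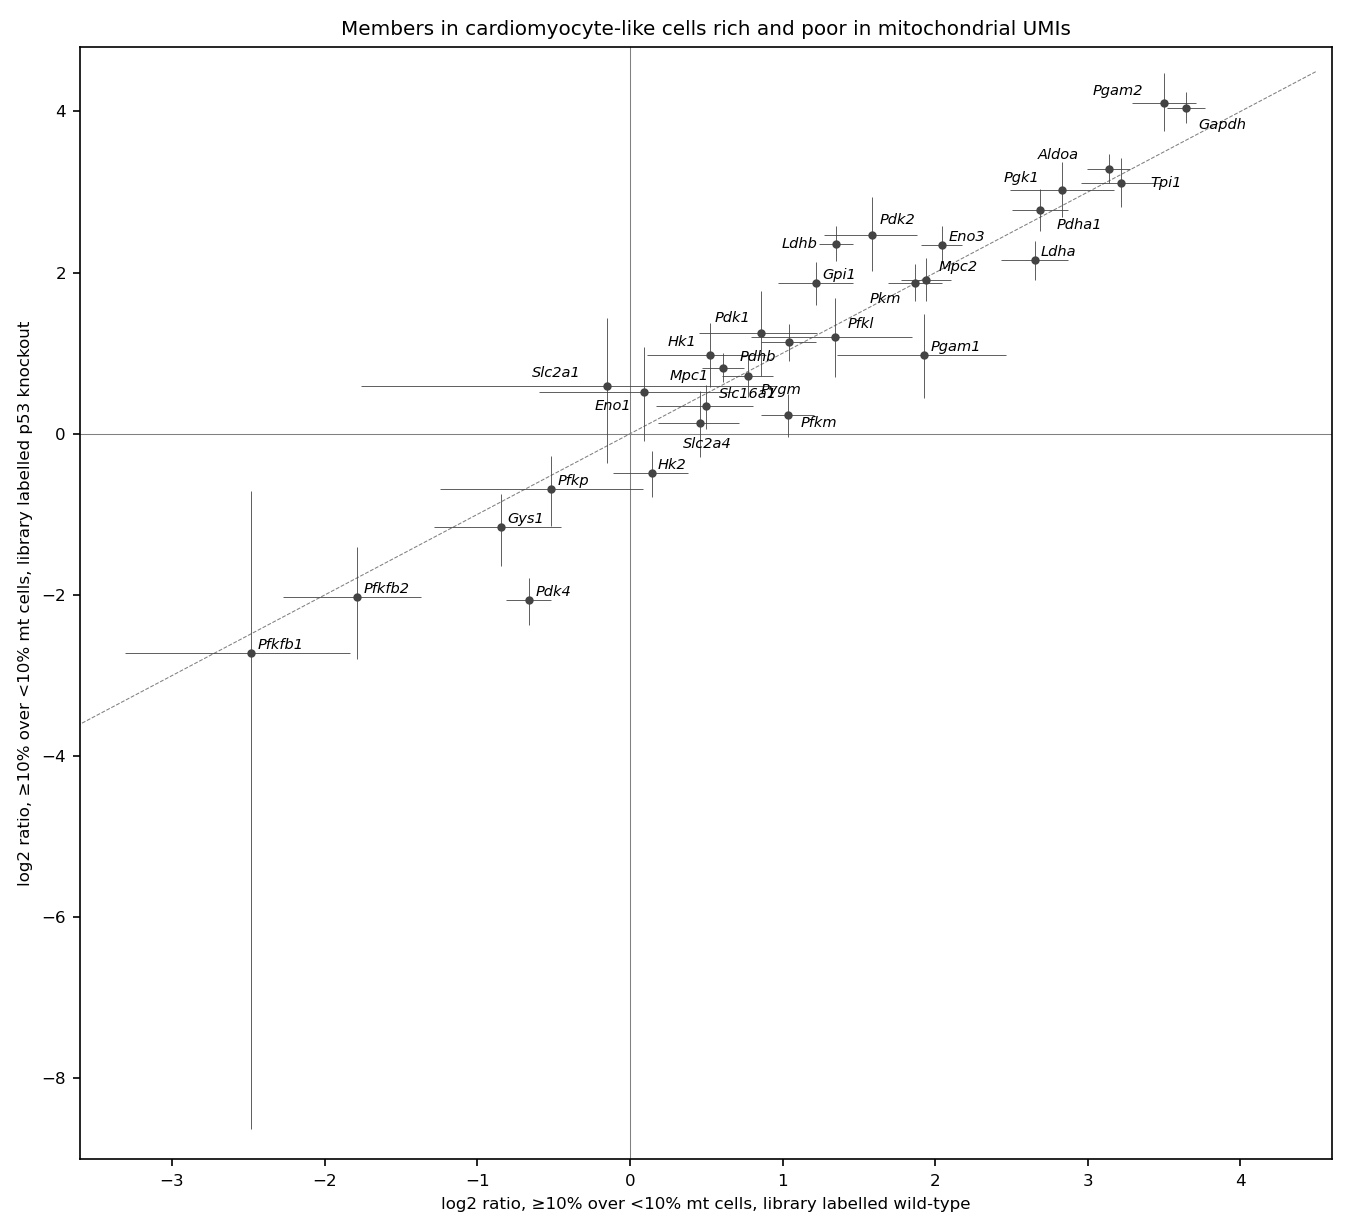
Log2 ratio of each member in mt-rich over mt-poor cardiomyocyte-like cells, with the WT-labelled library on the horizontal axis and the p53KO-labelled library on the vertical axis, both in log2 units, bars for exact 95% intervals and a dashed line for equal ratios. Most members lie above 0 on both axes, led by Gapdh and Pgam2, while Pfkfb1, Pfkfb2, Pdk4 and Gys1 lie below 0 on both.

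Outside the cardiomyocytes, members differed between the libraries in both directions. Slc16a3 and Slc2a1 were higher in the p53KO-labelled library in macrophage-like, fibroblast-like and both endothelial classes, and Slc16a3 in pericyte-like cells too. Pfkl, Pgk1 and Pgam1 were higher as well. Ldhb, Pdk4, Eno3, Pgam2 and Pygm, forms that cardiomyocytes are known for, were lower in all 5 classes, and Slc2a4 in all but the pericyte-like. The members at least 2-fold higher numbered 6 of 34 in fibroblast-like cells (all measured genes 6.40%), 4 of 34 in vascular endothelial-like (6.08%), 5 of 34 in endocardial-like (6.58%), 6 of 34 in macrophage-like (7.13%) and 4 of 33 in pericyte-like cells (5.56%). Those at least 2-fold lower numbered 8 (11.3%), 12 (13.3%), 9 (11.0%), 6 (11.6%) and 7 (12.0%) in the same order. Member medians were 0.14, -0.46, -0.11, -0.22 and 0.11, beside -0.10, -0.09, -0.11, -0.04 and -0.06 over all genes.

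**Figure D4:**
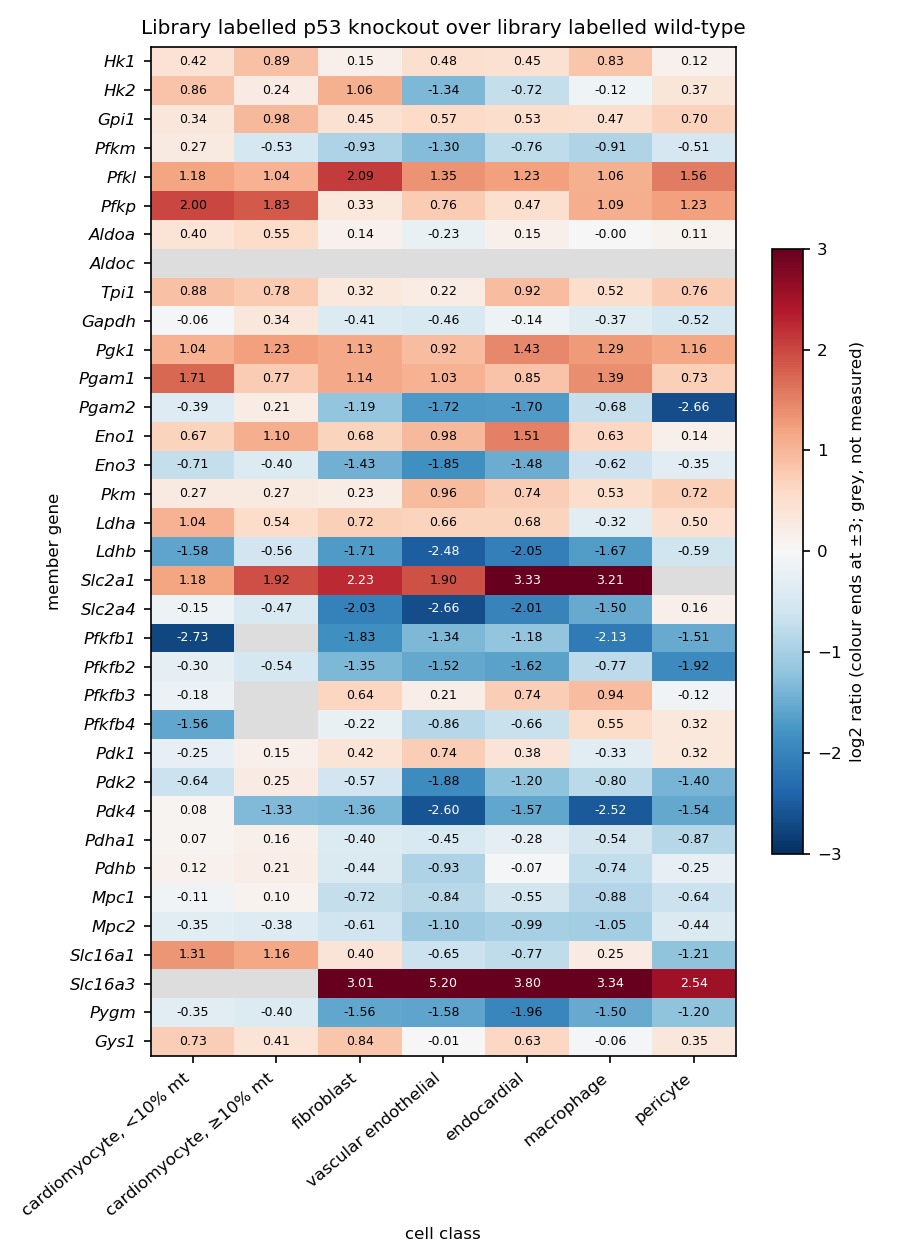
Log2 ratio of the p53KO-labelled library over the WT-labelled library for each member (rows) in each large cell class (columns), with members of under 20 UMIs over both libraries in grey. Slc16a3, Slc2a1, Pfkl and Pgk1 are above 0 in every column where they were measured, and Ldhb is below 0 in all 7.

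Slc16a3 (ENSMUSG00000025161; chromosome 11, 120948480 to 120960868, plus strand), whose promoter is shown above, was nearly unseen in the WT-labelled library. In fibroblast-like cells it had 11 and 107 UMIs, or 3.24 CPM (interval 1.62 to 5.803) and 27.2 CPM (interval 22.3 to 32.8), a log2 ratio of 3.01 (interval 2.17 to 4.11). Vascular endothelial-like cells had 1 and 67 UMIs (log2 ratio 5.199, interval 3.25 to 11.098) and endocardial-like cells 3 and 110 UMIs (log2 ratio 3.801, interval 2.43 to 6.32). Macrophage-like cells had 3 and 33 UMIs and pericyte-like cells 6 and 17 UMIs. The intervals of the 2 libraries did not overlap in any of these 5 classes. Of its 506 UMIs in the p53KO-labelled library, 113 were in cluster 15, an unnamed cluster of 11 and 396 cells with macrophage and neutrophil markers; the part of free RNA from such cells in the other classes was not tested. As a share of both lactate carriers Slc16a3 was 15.1% and 52.97% in fibroblast-like, 1.54% and 57.3% in vascular endothelial-like and 8.33% and 71.4% in endocardial-like cells. Slc16a1, the remainder of this share, stood near the level of cardiomyocyte RNA in both endothelial classes, as given further on, and the part of that RNA in the shares was not tested.

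Slc2a1 showed the same direction in 4 of these classes. Fibroblast-like cells had 21 and 117 UMIs, or 6.19 CPM (interval 3.83 to 9.46) and 29.7 CPM (interval 24.6 to 35.6). Endocardial-like cells had 7 and 170 UMIs, or 3.999 CPM (interval 1.61 to 8.24) and 42.9 CPM (interval 36.7 to 49.8), a log2 ratio of 3.33 (interval 2.35 to 4.76). Vascular endothelial-like cells stood at 9.17 and 34.8 CPM, and macrophage-like cells had 3 and 30 UMIs. In pericyte-like cells it had 8 and 3 UMIs and was not measured. Pfkl, Pgk1 and Pgam1 had smaller ratios: Pfkl from 1.06 in macrophage-like to 2.09 in fibroblast-like cells, Pgk1 from 0.92 in vascular endothelial-like to 1.43 in endocardial-like cells, and Pgam1 from 0.73 in pericyte-like to 1.39 in macrophage-like cells. All 3 were thus higher in the p53KO-labelled library in each of the 5 classes, by less than either carrier where that carrier was measured, although the interval for Pgam1 in pericyte-like cells held 0.

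Hk2 stood at 33.9 and 70.8 CPM in fibroblast-like cells (log2 ratio 1.06, interval 0.74 to 1.39) and at 48.1 and 18.9 CPM in vascular endothelial-like cells (log2 ratio -1.34, interval -1.81 to -0.904), higher in the p53KO-labelled library in the first and lower in the second. The vascular values were 23.5% and 5.45% of its cardiomyocyte level, beside medians of 22.4% and 4.18% for 10 cardiomyocyte markers there. Of the large classes, macrophage-like cells had the highest Pfkfb3, at 91.3 and 175 CPM, followed by endocardial-like cells, at 63.98 and 107 CPM. Pfkfb4 too stood highest among them in macrophage-like cells, at 67.8 and 99.5 CPM. For both genes the intervals of the highest and second class overlapped in the WT-labelled library. Pkm, pyruvate kinase, stood at 142 CPM (interval 128 to 157) and 275 CPM (interval 258 to 294) in vascular endothelial-like cells, where it was higher in the p53KO-labelled library. Slc16a1, higher in that library in cardiomyocyte-like cells, stood at 23.5 and 14.98 CPM in vascular endothelial-like and 18.9 and 11.1 CPM in endocardial-like cells, lower in it in both. These were 22.3% and 5.68%, and 17.9% and 4.21%, of its cardiomyocyte level, where the marker medians were 22.4% and 4.18%, and 15.7% and 4.07%. The part of cardiomyocyte RNA in the Hk2 and Slc16a1 values was not tested. A test of the difference between classes was not possible with 1 library per group. The fibroblast-like and endocardial-like cells of the libraries, like the cardiomyocyte-like, lay mostly in different clusters: 2952 and 205 fibroblast-like cells were in cluster 0 and 119 and 1718 in cluster 4, and 1548 and 364 endocardial-like cells were in cluster 3 and 17 and 1275 in cluster 8.

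Cardiomyocyte RNA was found in every other class, and more of it in the WT-labelled library. As a percentage of its level in cardiomyocyte-like cells, the median of 10 cardiomyocyte markers in the WT-labelled library was 14.1% (range 9.54 to 31.9%) in fibroblast-like cells, 22.4% (range 12.1 to 46.9%) in vascular endothelial-like, 15.7% (range 9.902 to 32.9%) in endocardial-like, 15.4% (range 10.03 to 37.05%) in macrophage-like and 15.7% (range 8.89 to 37.6%) in pericyte-like cells. In the p53KO-labelled library the same medians were 3.76% (range 1.34 to 8.89%), 4.18% (range 1.64 to 10.7%), 4.07% (range 1.23 to 8.96%), 4.81% (range 2.02 to 11.6%) and 4.09% (range 2.12 to 10.99%). None of the 8 muscle and heart forms plotted (Ldhb, Eno3, Pgam2, Pygm, Slc2a4, Pdk4, Pfkm and Hk2) lay below the markers' range in any of these classes, and several lay above it. In fibroblast-like cells of the p53KO-labelled library Hk2, Pfkm and Eno3 did so, at 20.5%, 12.1% and 10.9%. In macrophage-like cells of that library Eno3, Hk2, Pgam2 and Pfkm did, at 19.7%, 18.2%, 18.02% and 12.6%. Pgam2 lay above the range in the WT-labelled library in all but fibroblast-like cells, at 42.3% in endocardial-like cells. Ldhb stood at 21.6% and 12.5% of its cardiomyocyte level in fibroblast-like cells and at 28.3% and 9.59% in vascular endothelial-like cells, within the range of the markers in the WT-labelled library; in the other it was above that range in fibroblast-like and within it in vascular endothelial-like cells. Slc2a4 stood at 15.99% and 4.38% in fibroblast-like cells and Pdk4 at 15.5% and 2.74% in vascular endothelial-like cells, within the markers' range in both libraries. Lower levels of these forms outside the cardiomyocytes move together with less cardiomyocyte RNA there, and the part of that RNA in them was not tested. Slc16a3 had few UMIs in the cardiomyocyte-like cells themselves, 7 and 11 UMIs in the mt-poor and 2 and 3 UMIs in the mt-rich.

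**Figure D5:**
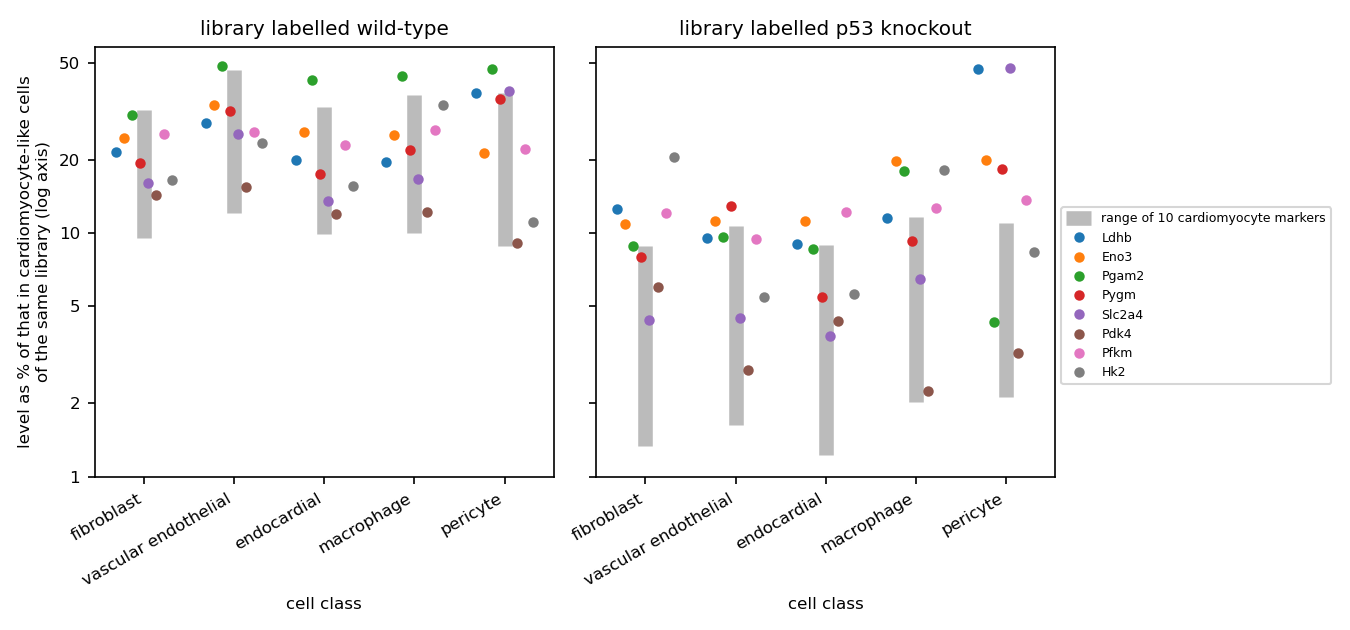
Level of muscle and heart forms in other cell classes as a percentage of their level in cardiomyocyte-like cells of the same library, on a log axis, beside a grey bar for the range of 10 cardiomyocyte markers, in 1 panel per library. The grey bars lie higher in the WT-labelled library, and in the p53KO-labelled library pericyte-like Ldhb stands above the markers' range at 47.2%.

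In pericyte-like cells Ldhb and Slc2a4 stood highest of the muscle and heart forms against the cardiomyocyte markers in the p53KO-labelled library. Ldhb there was at 219 CPM (interval 187 to 255) and 145 CPM (interval 107 to 191), or 37.8% and 47.2% of its cardiomyocyte level, and Slc2a4 at 57.8 and 63.7 CPM, or 38.2% and 47.7%. Both percentages lay just above the range of the 10 markers in pericyte-like cells of the WT-labelled library and well above it in the other. The cardiomyocyte level by which Ldhb is divided was itself 580 and 306 CPM. Other forms also lay above the range: Pgam2 at 47.3% in the WT-labelled library, and Eno3, Pygm and Pfkm at 19.9%, 18.4% and 13.7% in the other. Pericytes wrap the capillaries, and in these data they held RNA of the heart-type lactate dehydrogenase and of the insulin-responsive glucose carrier in 50 and 22 UMIs of the library in which cardiomyocyte RNA was scarce elsewhere.

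Genes of the same pathways outside the member set, from lists drawn up by function, lay on both sides of 0 in mt-poor cardiomyocyte-like cells, where 29.99% of all measured genes were higher. Of other enzymes of glycolysis and sugar entry, 6 of 14 were measured, 3 higher and 3 lower: Galm, the mutarotase of hexoses, stood at 134 and 93.7 CPM, and the muscle fructose bisphosphatase Fbp2, which runs the phosphofructokinase step backwards, at 22.1 and 3.93 CPM (log2 ratio -2.398, interval -3.84 to -1.403). Of genes of lactate and pyruvate, 11 of 13 were measured, 4 higher and 7 lower: Bsg, the partner that carries MCT1 to the membrane, stood at 203 and 324 CPM, Dlat at 209 and 180.2 CPM, Pdhx at 46.4 and 75.8 CPM, and Pdp2, a phosphatase that switches pyruvate dehydrogenase on, at 11.9 and 4.49 CPM. Bsg was thus higher in the same library as Slc16a1, here and in mt-rich cells (884 and 1374 CPM). Of glucose carriers and their traffic, 12 of 13 were measured, 6 higher and 6 lower: the carrier Slc2a12 stood at 22.5 and 5.61 CPM, the insulin receptor Insr at 497 and 749 CPM and Txnip, an inhibitor of glucose uptake, at 825 and 868 CPM.

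Glycogen genes were measured for 19 of 20, 9 higher and 10 lower. Ugp2, which makes UDP-glucose for glycogen, stood at 142 CPM (interval 132 to 153) and 685 CPM (interval 647 to 725), a log2 ratio of 2.27 (interval 2.14 to 2.400), beside 139 and 231 CPM for Gys1; in mt-rich cells Ugp2 stood at 298 and 348 CPM and its ratio interval held 0. Phkg1, the catalytic subunit of phosphorylase kinase in muscle, stood at 152 and 66.8 CPM and the brain-type phosphorylase Pygb at 309 and 413 CPM. Ugp2, Gys1 and Pygb were thus higher, and Phkg1 and Pygm lower, in the p53KO-labelled library. The muscle and brain forms of phosphorylase, Pygm and Pygb, therefore went opposite ways. All 9 genes of the pentose phosphate and hexosamine branches were measured, 3 higher and 6 lower, with none past 2-fold: Pgd stood at 14.3 and 15.2 CPM, Rpia at 12.6 and 6.74 CPM, Tkt at 77.8 and 72.4 CPM and Ogt at 419 and 299.7 CPM. All 11 transcription factors were measured, 4 higher and 7 lower: Myc stood at 7.36 and 23.6 CPM from 39 and 42 UMIs, Mlx at 19.1 and 5.05 CPM, Ppargc1a at 889.8 and 1137 CPM and Ppara at 381 and 470.4 CPM. Tigar, Hif1a and Epas1 are named after their values were seen: Tigar, a bisphosphatase known as a p53 target, stood at 53.1 and 46.6 CPM, Hif1a at 309 and 307 CPM and Epas1 at 118 and 57.3 CPM. Neither Tigar nor Hif1a RNA differed beyond counting error.

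Sequence copies limit some members. In the annotation, 9 members had a near-identical copy, at least 300 bases at 95% identity within their last 1000 bases, and for 3 of them (Gapdh, Pfkp and Eno1) a copy was also among the counted features, so that reads may have been split. Another feature overlapped the last 2000 bases of 7 members: Pfkp, Tpi1, Gapdh, Slc2a1, Pfkfb2, Pdha1 and Mpc1. The levels of these members are uncertain to that extent, as are those of Ldha and Ldhb, which have near-identical copies that are not among the counted features. Slc16a1, Slc16a3 and Pfkfb1 had neither a copy nor an overlapping feature there.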

How the data were processed

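Gene by barcode counts of UMIs from 2 mouse heart libraries were used as deposited by the authors. Cell Ranger, Seurat and mm10 are named in the submitters' processing notes; tool versions are not given in the sources used here. Each barcode consists of 3 runs of 9 bases, unlike those of the 10x 3' kit named in the labels, so the kit behind the counts is uncertain. Barcodes with at least 200 genes and at most 50% mitochondrial UMIs were kept; the lowest total was 500 UMIs in both libraries, and 105 barcodes occurred in both. Scrublet's automatic threshold marked 0 and 3 barcodes, so the 8% with the highest scores were removed from each library (1284 and 808), which does not show that they were doublets.

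Both libraries were clustered together with scanpy 1.11.5 and leidenalg 0.10.2, without the member genes (2000 variable genes, 30 components, resolution 1). Clusters were named from 19 marker lists with at least 3 markers at 2-fold or more; the naming thresholds, and leaving Cdh19 out of naming because it kept the larger fibroblast cluster unnamed, were set after the data were seen. UMIs were summed per class and library. Exact Poisson intervals were used for levels, conditional binomial for ratios and Clopper-Pearson for shares; a ratio with 0.5 UMI added was tested on simulated data. With 1 library per group there was no test. Members were described in full where past 2-fold with at least 20 UMIs, or among the 8 with the most UMIs. Members and lists were chosen with earlier results of these data known. Of 32589 identifiers, 32522 matched GENCODE vM21, from which positions come. Depth, filter, doublet, clustering, scaling and split alternatives were tried. The values of some single genes of the pathway lists are not reported here, although the list counts include them.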

Additional observations from a re-analysis of the deposited data

Results flagged for a closer look

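Pfkm and Pgam2, both muscle forms, had ratios of opposite sign in mt-poor and mt-rich cardiomyocyte-like cells, each with an interval that left out 0. The log2 ratio of the p53KO-labelled over the WT-labelled library was 0.27 for Pfkm in mt-poor cells and -0.53 in mt-rich cells. For Pgam2 it was -0.39 in mt-poor cells and 0.21 in mt-rich cells. Among cells of 500 to 1500 UMIs neither pattern held: Pfkm was -0.20 in mt-poor and -0.13 in mt-rich cells, and Pgam2 0.45 in mt-poor and -0.039 in mt-rich cells. Within cluster 1 Pfkm was -0.24, and with every cell weighted equally Pgam2 was 0.069 in mt-poor cells. With 1 library per group the difference between the cell groups was not tested.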

How the results depend on the processing

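Alternatives gave 532 values for single members, of which 46 moved by more than their interval and 7 changed sign, 154 for isoenzyme shares, of which 13 moved and 1 changed sign, and 158 for the member set as a whole, of which 8 moved; the cause was not tested. In cells of 500 to 1500 UMIs the log2 ratio was -0.20 for Pfkm and 0.45 for Pgam2 in mt-poor cells, -0.039 for Pgam2 and 0.073 for Pygm in mt-rich cells, the Pdk4 share difference in mt-poor cells was -1.83 points, and in mt-rich cells the median was 0.073 with 2 members at least 2-fold lower. With every cell weighted equally Pgam2 was 0.069 in mt-poor cells. Within cluster 1, chosen after seeing the data, Pfkm was -0.24 and Slc2a1, with 0 UMIs in 1 library, -1.17, with 6 members at least 2-fold lower. Splitting at 5% mitochondrial UMIs left 4 mt-poor members at least 2-fold higher, and gave 10 mt-rich members at least 2-fold higher and 3 lower. Asking for at least 100 UMIs left 3 mt-rich members at least 2-fold higher, and asking for at least 1 gave 2 at least 2-fold lower. The shares of all measured genes past 2-fold under these alternatives are not given, so the counts of members cannot be set against them. Members past the 2-fold mark, some of them by far, fell below it under 1 or more alternatives: in mt-poor cells Ldha (0.86 to 0.99), Pgk1 (0.67 to 0.97), Slc2a1 (0.93 with 500 genes per cell), Pfkp (0.22 in cluster 1) and Pfkfb4 (-0.89 in cluster 1, with 0 UMIs in 1 library), and Ldhb in cells of 500 to 1500 UMIs (-0.75). In mt-rich cells these were Pfkl (0.53 to 0.99), Pgk1 (0.95), Eno1 (0.92 to 0.99), Slc2a1 (0.64, split at 20%) and Pdk4 (-0.65 in cells of 500 to 1500 UMIs). No paired analysis was possible because each group has 1 library. Members of few UMIs, such as Slc16a3 and Slc2a1, are limited by depth.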

Other observations

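Mesothelial-like cells, which line the heart's surface (173 and 271 cells), had Slc16a1 at 334 CPM (interval 261 to 420.04) and 291 CPM (interval 258 to 327), from 72 and 283 UMIs, and its intervals overlapped. In the same cells Ldha stood at 55.6 and 139.8 CPM (log2 ratio 1.28, interval 0.48 to 2.32), and Pdk4 stood at 195 and 24.7 CPM from 42 and 24 UMIs. Adipocyte-like cells (24 and 55) had Pfkfb1 at 292 CPM (interval 151 to 511) and 381 CPM (interval 280.1 to 507), from 12 and 47 UMIs. The intervals of the X-linked Pfkfb1 overlapped there. Hk2 in adipocyte-like cells had 23 and 23 UMIs, or 560.3 and 187 CPM.

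Cluster 15 held 396 cells of the p53KO-labelled library and 11 of the other, and was led by genes of myeloid cells, among them Csf3r, Il1b, Gpnmb and Arg1. In its p53KO-labelled cells Pkm stood at 517 CPM from 351 UMIs, Slc16a3 at 166 CPM from 113 UMIs and Slc2a1 at 76.6 CPM from 52 UMIs. The Pfkfb forms were Pfkfb3 at 141 CPM and Pfkfb4 at 92.8 CPM. With 11 cells in the other library no comparison was made.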
